A study of Rattus norvegicus with 6 samples.

Results

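The genes of the T cell receptor complex and its coreceptors were followed in the ipsilateral lumbar spinal cord of rats with bone cancer pain (BCP). The 9 genes are the CD3 chains Cd3e, Cd3d and Cd3g, the zeta chain Cd247, the coreceptors Cd4, Cd8a and Cd8b, and the kinases Lck and Zap70. They were chosen by name, each matched 1 row of the 30957 genes in the deposited table, and 8 of them had enough counts to be among the 14908 genes tested. The study holds 3 BCP and 3 sham libraries from adult Wistar rats, female by the methods of the study, all taken on day 14 after inoculation. BCP rats carried living Walker 256 cells, a rat mammary carcinoma line, in the left tibia. Sham rats received heat-killed cells of the same line by the same route. Both groups thus shared the needle injury of the tibia, and no untouched group was compared. Bone destruction was not shared, since the paper describes it as severe in BCP rats compared with sham rats. Meninges were removed before the cord was split and frozen. The labels do not say whether each library came from a separate animal, so p-values measure the spread between these samples.

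On a T cell, the antigen-binding receptor chains sit in the membrane with CD3 dimers and a zeta dimer, which carry the signal because the receptor chains have short tails. CD4 binds MHC class II and CD8 binds MHC class I on the presenting cell, and both bring the kinase Lck to the receptor. Lck phosphorylates the CD3 and zeta tails, and Zap70 docks there and passes the signal on. The CD3 chains are close to specific for T cells, whereas natural killer cells also use Cd247, Lck and Zap70. In rats, Cd4 is also made by microglia, macrophages and monocytes, and many natural killer cells carry CD8 alpha without CD8 beta. An uninjured spinal cord holds few T cells.

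The promoters of the CD3 chains and of Cd247 are shown because these 4 genes encode the signalling chains of the receptor itself, and Cd3e, Cd3d and Cd3g are neighbours in the genome. Each of the 4 had 2 or fewer counts over all the sham libraries. The sequences are those of RefSeq on build GRCr8, a later build than the Rnor_6.0 of the files, and cover the 250 bases before the start of each gene. Capitals mark matches to 5 motifs, searched on either strand. These were AGGAAG for the core of ETS sites, TGTGGT for RUNX sites, CTTTGA for TCF/LEF sites, TGACGT for the cyclic AMP response element (CRE) and TATAAA for the TATA box. The windows are chr8:54211771-54212020 on the minus strand for Cd3e, chr8:54185269-54185518 on the plus strand for Cd3d, chr8:54183919-54184168 on the minus strand for Cd3g and chr13:80576019-80576268 on the plus strand for Cd247.
Cd3e: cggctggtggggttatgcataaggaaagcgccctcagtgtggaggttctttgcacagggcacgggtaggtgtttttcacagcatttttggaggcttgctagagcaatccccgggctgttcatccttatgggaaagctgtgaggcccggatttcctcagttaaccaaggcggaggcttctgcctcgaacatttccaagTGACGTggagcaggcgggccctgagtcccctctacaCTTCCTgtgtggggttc
Cd3d: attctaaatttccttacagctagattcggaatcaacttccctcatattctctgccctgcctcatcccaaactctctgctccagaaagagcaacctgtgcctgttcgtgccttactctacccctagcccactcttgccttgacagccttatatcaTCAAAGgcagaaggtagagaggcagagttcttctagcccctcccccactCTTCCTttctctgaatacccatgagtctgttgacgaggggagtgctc
Cd3g: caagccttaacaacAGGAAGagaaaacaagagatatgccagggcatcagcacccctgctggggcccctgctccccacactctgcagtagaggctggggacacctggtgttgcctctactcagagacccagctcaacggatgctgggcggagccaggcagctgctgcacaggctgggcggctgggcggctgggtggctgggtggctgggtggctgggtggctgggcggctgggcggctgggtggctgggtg
Cd247: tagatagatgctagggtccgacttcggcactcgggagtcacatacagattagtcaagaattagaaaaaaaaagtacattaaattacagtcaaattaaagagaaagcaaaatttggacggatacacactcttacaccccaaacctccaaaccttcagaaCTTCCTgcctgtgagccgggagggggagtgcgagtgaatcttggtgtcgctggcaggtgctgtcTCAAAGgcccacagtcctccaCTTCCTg

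Promoters were found for 7 of the 9 genes, in 8 windows, since Lck has 2 starts, and Cd4 and Cd8b had no entry. The ETS core was present in 7 of the 8 windows, against 29.5% of 33469 RefSeq promoter windows, and the window of Cd8a held none of the motifs. TCF/LEF letters were present in the windows of Cd3d, Zap70 and Cd247 (13.9% of all windows), CRE letters in those of Cd3e and Zap70 (6.95%), RUNX letters in 1 window of Lck (14.5%) and TATA letters in none (12.9%). In the window of Zap70 the TCF/LEF match shares bases with CRE matches on both strands. These are matches of letters and not sites of binding.

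The libraries held 11779485 to 15004290 counts on genes, so a single count is a very small share of any of them. Of 16 listed genes of neurons, glia, vessels and lumbar position, 15 were found and tested, and 0 were called by edgeR (8 with an unadjusted p under 0.05, 0 called by DESeq2). Their median log2 fold change was -0.16. Their summed FPKM (fragments scaled to gene length and depth) ran from 12374.1 to 13710.5 in the sham libraries and from 10246.9 to 11184.4 in the BCP libraries. BCP library 1 stood apart from the others for some genes, for example Aqp4, an astrocyte water channel, with 28568 counts against 4637 to 5427 in the other 5 libraries, and 7 of the 9 members were lowest there among the BCP libraries. Values without this library are therefore given for some of the results. In bulk RNA, more cells of a type and more RNA per cell cannot be told apart.

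The CD3 chains went from almost no counts to clear detection in each BCP library. Cd3e, which pairs with either of the other chains and is needed for the receptor to reach the surface, had 0, 0 and 1 counts in sham cord against 56, 104 and 111 in BCP cord. Every BCP library lay far above every sham library, and BCP library 1 was the lowest of its group. Normalized, Cd3e rose from 0.0225 ± 0.0390 to 6.85 ± 1.90 CPM (counts scaled to the library size after TMM normalization, SD, n = 3). The ratio of the summed counts was 293, with an exact 95% interval from 52.2 to 11625 that covers counting error only. edgeR's quasi-likelihood test gave a log2 fold change of 7.71 (SE 0.54, adjusted p = 1.33e-09).

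Cd3d, the delta chain, had no count in sham cord against 11, 16 and 15 in BCP cord. Since the sham group was at 0, no ratio can be given, and Cd3d was set against a floor of 3 counts over the group. Taking the BCP count as exact, Cd3d was 15.1-fold higher than this floor. Its adjusted p was 3.03e-05 by the same edgeR test. Cd3g, the gamma chain, had 0, 0 and 1 counts in sham cord against 21, 43 and 24 in BCP cord. BCP library 2 was highest for Cd3g, whereas Cd3e was highest in BCP library 3. The ratio of the Cd3g counts was 95.2 (exact 95% counting interval 16.7 to 3803), with a fitted log2 fold change of 6.10 (SE 0.69, edgeR adjusted p = 1.04e-06).

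Cd247, the zeta chain that carries several signalling motifs per molecule, had 0, 2 and 0 counts in sham cord against 36, 31 and 32 in BCP cord. It was the only signalling chain for which BCP library 1 was the highest of its group, although the counting intervals of the 3 BCP libraries overlapped. The ratio of the summed counts was 53.6 (exact 95% counting interval 14.4 to 448) and the log2 fold change 5.50 (SE 0.60, edgeR adjusted p = 6.91e-07). Fitted fold changes of genes with so few sham counts depend on the small count that the fit adds, and for Cd247 the value was 8.10 without sham library 2, which held all of its sham counts. In the same way Cd3e came to 9.52 and Cd3g to 7.90 without sham library 3.

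**Figure D1:**
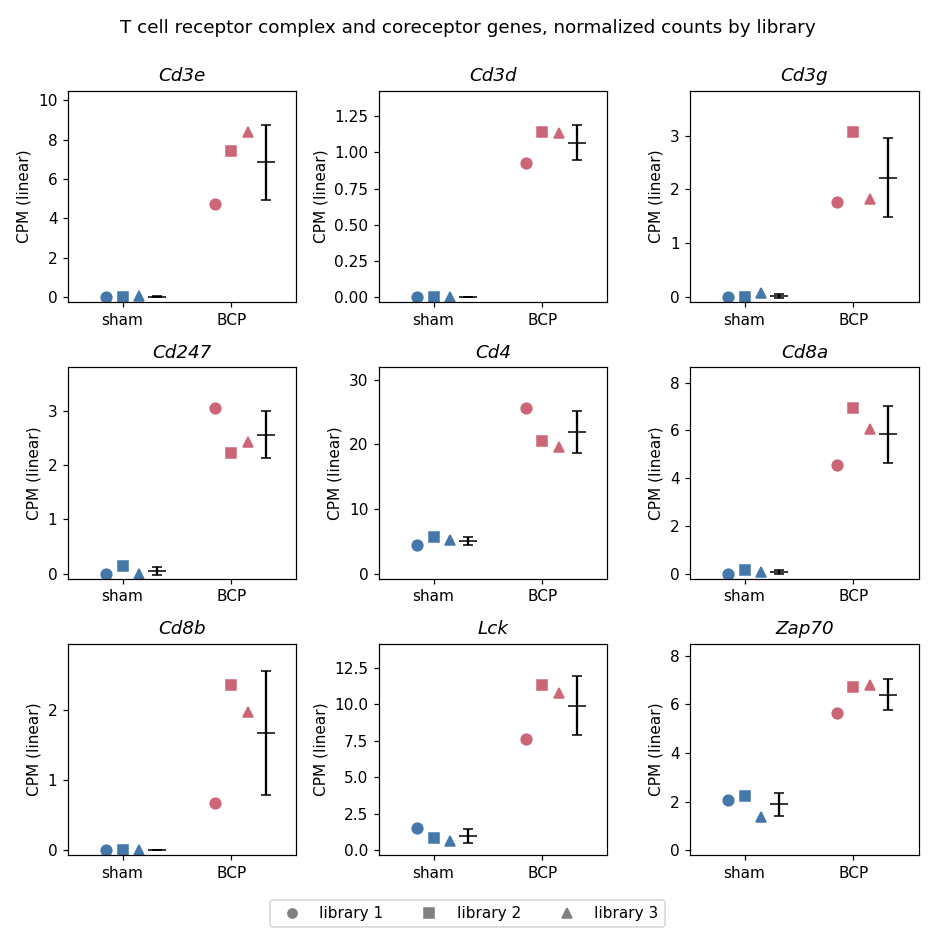
Normalized counts (CPM, linear axes from 0, a separate scale for each gene) of the 9 genes in the 3 sham (blue) and 3 BCP (red) libraries, with the marker shape giving the library number and the black bar the mean ± SD. All BCP libraries lie above all sham libraries for each gene, while the sham level is near 0 for the CD3 chains, Cd247, Cd8a and Cd8b and clearly above 0 for Cd4, Lck and Zap70.

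The CD8 coreceptor genes behaved like the CD3 chains, with next to no sham counts. Cd8a, the alpha chain, had 0, 2 and 1 counts in sham cord against 54, 97 and 80 in BCP cord. The groups did not overlap, and the ratio of summed counts was 83.3 (exact 95% counting interval 28.2 to 407), with a log2 fold change of 6.20 (SE 0.46, edgeR adjusted p = 2.69e-09). Cd8b, the beta chain that marks conventional CD8 T cells, had no count in sham cord against 8, 33 and 26 in BCP cord. It was 24.2-fold higher than the floor of 3 counts over the sham group. Because BCP library 1 had so few counts, Cd8b did not pass the filter and was not tested with the other members, and without that filter its adjusted p in the edgeR test was 5.96e-06.

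Cd4 differed from the other coreceptors in having a sizeable level in the sham cord. It had 58, 81 and 77 counts in sham cord against 303, 287 and 260 in BCP cord, with BCP library 1 the highest. Cd4 rose from 5.09 ± 0.624 to 21.9 ± 3.21 CPM (SD, n = 3), a ratio of 4.26 (exact 95% counting interval 3.66 to 4.97). The log2 fold change was 2.10 (SE 0.14, edgeR adjusted p = 1.01e-09), smaller than those of the CD3 chains and of Cd8a.

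The receptor kinases were also detected in sham cord. Lck had 20, 12 and 9 counts in sham cord against 90, 159 and 143 in BCP cord, a ratio of 10.3 (exact 95% counting interval 7.49 to 14.6). The log2 fold change of Lck was 3.34 (SE 0.27, edgeR adjusted p = 1.94e-08). Zap70 had 27, 32 and 20 counts in sham cord against 67, 94 and 90 in BCP cord, with no overlap of the groups. Its ratio of 3.44 (exact 95% counting interval 2.66 to 4.49) and its log2 fold change of 1.77 (SE 0.23, edgeR adjusted p = 7.24e-06) were the smallest among the 8 genes tested.

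In all, 8 of the 8 tested members were called up, at an adjusted p under 0.05 and more than 2-fold, and 0 were called down by edgeR or by DESeq2, with no member lower at an unadjusted p under 0.05. Over all tested genes 6.35% were called up and 0.107% down. The count of members has to be read with the filter in mind, because Cd3e, Cd3d, Cd3g, Cd247 and Cd8a passed it in the BCP libraries alone and so had to be higher there. Of the 3 members with enough sham counts to move either way, Cd4 and Zap70 passed the limit of the filter in all 6 libraries and Lck in 5. All BCP libraries lay above all sham libraries for each of these 3, as they did for 21.7% of all tested genes, and the filter itself sets this order for the 5 genes that passed it in the BCP libraries alone. Cd8b, which was not among the tested genes, did not overlap either.

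Levels of different genes were compared per length, as the deposited FPKM (fragments scaled to the exon length of the gene and to the depth of the library). In the BCP libraries Cd4 had the highest level of the 9 genes at 12.7 ± 1.75 FPKM (SD, n = 3), above Lck at 4.86 ± 1.02 with no overlap of the libraries. Below Lck followed Cd8a at 4.28 ± 0.899, Cd3g at 3.65 ± 1.22, Cd3e at 3.09 ± 0.876 and Zap70 at 2.92 ± 0.313. Each of these overlapped its neighbour in the order, so their ranks are not separated by these libraries. Cd247 at 1.52 ± 0.244 FPKM lay below Zap70 without overlap, and Cd3d at 1.5 ± 0.181 and Cd8b at 1.15 ± 0.613 overlapped with it. In the sham libraries the order was another, with Cd4 at 2.87 ± 0.362 FPKM, Zap70 at 0.835 ± 0.208 and Lck at 0.470 ± 0.225, and no other member above 0.0492 on average.

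**Figure D2:**
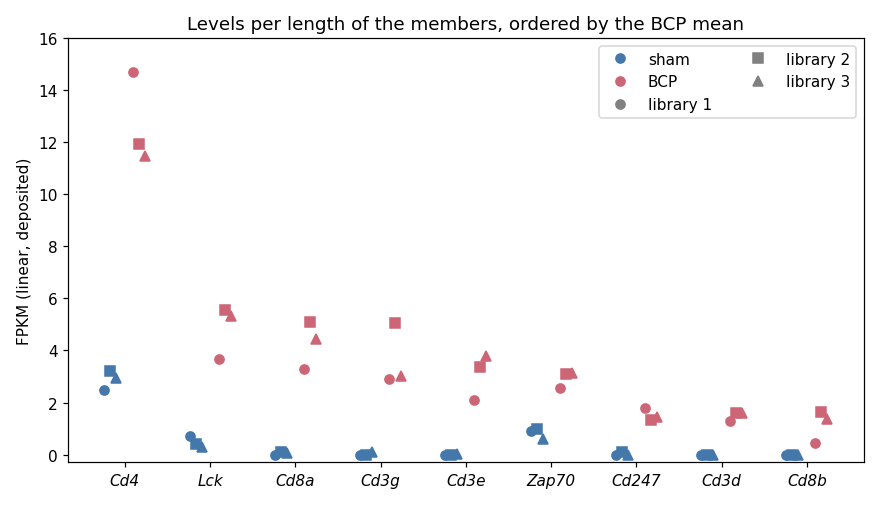
Deposited FPKM (linear axis) of the 9 genes in each library, ordered by the mean of the BCP libraries, with sham in blue, BCP in red and the marker shape giving the library number. Cd4 is highest in both groups, from 11.5 to 14.7 FPKM in the BCP libraries, and the remaining genes lie below 6 FPKM.

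Ratios of FPKM within a library compare members without the scaling between libraries. Zap70 over Lck was 1.94 ± 0.626 in sham cord against 0.612 ± 0.0746 in BCP cord (SD, n = 3), and the groups did not overlap. An exact two-sided permutation test gave p = 0.1, the smallest that 3 against 3 allows (0.25 after adjustment over 5 ratios tested). Cd4 over Lck was 3.44, 8.01 and 10.1 in sham cord against 3.99, 2.14 and 2.16 in BCP cord, where sham library 1 overlapped the BCP range (exact permutation p = 0.2, adjusted 0.25). The log2 difference of Cd4 over Lck was -1.31, and -1.61 without BCP library 1. Cd8a over Cd4 was 0, 0.0311 and 0.0164 in sham cord against 0.225, 0.426 and 0.388 in BCP cord, with no test on the log scale because of the 0. Cd8a over Cd8b, defined only where Cd8b had counts, was 7.14, 3.11 and 3.26 in BCP libraries 1, 2 and 3.

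The BCP libraries were not alike in these genes. Cd8b in BCP library 1 reached 40.6% of the mean of its group, and its counting interval of 0.292 to 1.33 CPM did not reach that of BCP library 2, 1.62 to 3.31 CPM. Cd3e in BCP library 1 stood at 69.0% of the group mean, Lck at 76.6% and Cd8a at 78.0%. Cd4 and Cd247 went the opposite way in that library, at 117% and 119%. The interval of Cd4 in BCP library 1, 22.8 to 28.6 CPM, overlapped narrowly with that of library 2, 18.2 to 23.0 CPM, and not with that of library 3, 17.4 to 22.2 CPM. Without BCP library 1 the log2 fold changes were 7.93 for Cd3e, 3.51 for Lck and 1.98 for Cd4, and Cd8b passed the filter and was called up, so that 9 members were called.

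**Figure D3:**
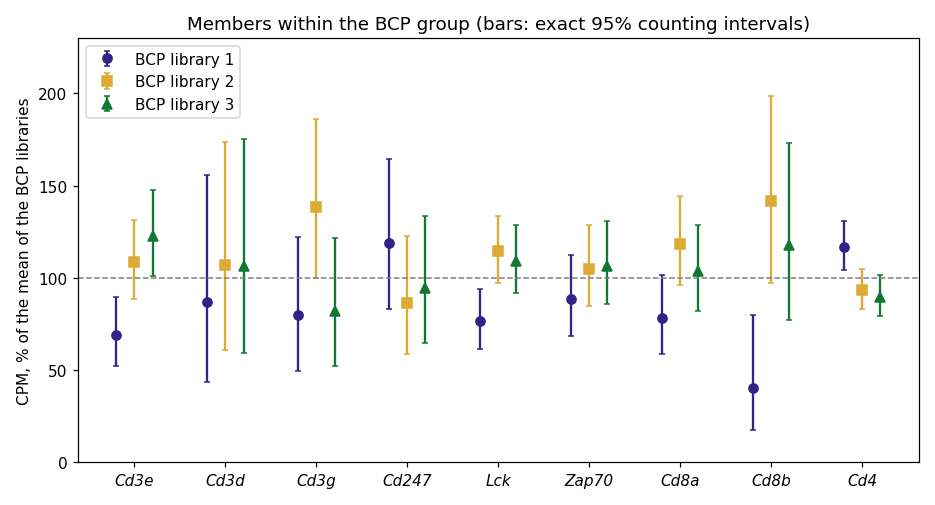
CPM of each member in the 3 BCP libraries as a percentage of the mean of the group, with exact 95% counting intervals as bars and a dashed line at the mean. BCP library 1 (circles) lies lowest for 7 genes and highest for Cd247 and Cd4, and its interval lies apart from that of at least 1 other library for Cd3e, Lck, Cd8b and Cd4.

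Cd4 was set beside a list of 16 genes of microglia and macrophages, since these cells make Cd4 in rats. Of this list 10 were called up and 0 down, with a median log2 fold change of 1.52, while all tested genes had a median of -0.01. The 4 called genes with the smallest p-values were Cd68, a lysosomal protein of phagocytes (log2 fold change 3.66, SE 0.15), Adgre1, the F4/80 antigen (2.50, SE 0.11), Cx3cr1, the fractalkine receptor (1.42, SE 0.09), and Aif1, also called Iba1 (2.40, SE 0.12). Cd4 over the mean FPKM of the list was 0.233, 0.317 and 0.352 in sham cord against 0.509, 0.393 and 0.331 in BCP cord. These ranges overlapped, and the difference of 0.45 on the log2 scale had an exact permutation p of 0.2 (adjusted 0.25). Over Csf1r, the receptor on which microglia depend, Cd4 stood at 0.115 ± 0.0257 in sham cord against 0.182 ± 0.0432 with no overlap (SD, n = 3, exact permutation p = 0.1, adjusted 0.25), and over Aif1 at 0.807 ± 0.260 against 0.640 ± 0.148 (exact permutation p = 0.5, adjusted 0.5). BCP library 1 had the highest of these Cd4 ratios in its group. Without it the log2 difference was 0.28 over the list, 0.49 in place of 0.67 over Csf1r and -0.48 in place of -0.31 over Aif1. Whether the rise of Cd4 came from T cells or from phagocytes was not tested.

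Rows for the receptor chains themselves were sparse. Of the 4 named rows of variable segments, Trbv19 had 0 sham counts and 3, 5 and 3 BCP counts, and Trbv1 had 0, 1 and 0 sham counts and 3, 2 and 3 BCP counts. Both stayed under the filter and were not tested, and Trbv5 and Trdv5 had no counts in any library. Segments of the receptor loci are near-copies of each other, and the counting could have divided or dropped their reads.

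Of the other genes of proximal receptor signalling, 38 of the 40 names were found, 35 were tested, 13 were called up and 0 down, with a median log2 fold change of 0.48. Of the 13, 4 reached the filter in no sham library and so had to be higher in the BCP libraries, and 9 of the other 31 were called up. Among the called genes with the smallest p-values were Ptpn6, the SHP-1 phosphatase that restrains receptor signalling (log2 fold change 3.0, SE 0.12), Vav1, a guanine nucleotide exchange factor (2.90, SE 0.17), and Rhoh, an atypical GTPase that helps Zap70 reach the receptor (3.11, SE 0.23). These 3 genes had 51 or more counts over the sham group and are also used by other leukocytes. Chosen after its values were seen, the T cell gene Themis, a regulator of thymocyte selection, showed the pattern of the CD3 chains, with 0, 0 and 1 sham counts and 31, 42 and 26 BCP counts. Lat, the adaptor that Zap70 phosphorylates, had 11, 19 and 18 counts against 20, 36 and 38 and a log2 fold change of 1.07 (SE 0.32, edgeR adjusted p = 0.0156). Fyn, another kinase of the Src family, stood at -0.01 (SE 0.05) and Plcg1, a phospholipase of the pathway, at -0.10 (SE 0.05).

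On the surface of T cells, 14 of the 17 listed genes were tested, of which 13 were called up and 0 down. The filter fixed much of this count, since 7 of the 14 reached it in no sham library, and 6 of the other 7 were called up. The called genes with the smallest p-values were Cd48, Il2rb, Cd27 and Cd69. Cd48, an adhesion ligand found on most leukocytes, rose by 1.06 on the log2 scale (SE 0.09), and Il2rb, a chain of the interleukin-2 and interleukin-15 receptors, by 3.46 (SE 0.30). Cd27, a costimulatory receptor, had no count in sham cord against 25, 43 and 44 in BCP cord (40.4-fold higher than the floor). Cd69, an early activation and tissue retention marker, had 0 against 23, 29 and 47 (35.7-fold higher than the floor). Thy1, which neurons also make in large amounts, was the tested gene of this list that was not called, at -0.29 (SE 0.04).

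Among the 16 listed regulators of the lineage 15 were tested, 6 were called up and 0 down, and the median was 0.80. Of the 15, 4 reached the filter in no sham library and were all called, and 2 of the other 11 were called up. The 4 called genes with the smallest p-values were Themis2, a signalling adaptor of B cells and macrophages rather than a transcription factor (log2 fold change 2.96, SE 0.21), Ikzf3 (4.26, SE 0.38), Runx3, which supports the CD8 lineage (0 sham counts and 28, 43 and 49 BCP counts, 43.3-fold higher than the floor), and Ikzf1 (2.49, SE 0.17). Zbtb7b, which directs the CD4 lineage but is not confined to it, stood at -0.05 (SE 0.08). Foxp3, which defines regulatory T cells, had 5, 3 and 3 sham counts and 4, 7 and 4 BCP counts and was not tested. Of 13 genes of lymphocyte traffic 10 were tested, and 7 were called up and 0 down, where 4 reached the filter in no sham library and 3 of the other 6 were called up. Among the called genes were Itga4, an integrin chain used to cross vessels of the central nervous system (log2 fold change 2.28, SE 0.16), and Cxcr6 (0 sham counts and 28, 46 and 27 BCP counts, 36.4-fold higher than the floor). Ccr7, the homing receptor of naive and central memory T cells, had 0 counts in 5 libraries and 2 in BCP library 3, and Ccr4 had none in any library.

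Markers of some other cells rose with the members, and lists for other cells are given for that reason. Of 17 rows for natural killer and cytotoxic genes 13 were tested and called up, but 11 of these reached the filter in no sham library and had to be higher in the BCP libraries, which leaves 2 of 2. Those 2 were Tyrobp and Fcgr3a, which phagocytes also use, so they do not mark natural killer cells alone. The summed FPKM of the list went from 17.2 to 21.6 in the sham libraries to 118 to 171 in the BCP libraries. Most of it came from Tyrobp, at a mean of 16.4 in sham and 77.4 in BCP cord, and Fcgr3a, at 1.61 and 24.2. The sum was not split by cell type. The smallest p-values of this list belonged to Fcgr3a (log2 fold change 3.86, SE 0.15), Klrk1 (6.49, SE 0.29), Klrc2 (6.73, SE 0.44) and Prf1, which encodes perforin (5.42, SE 0.38), and the Klr genes form a multigene family whose reads the counting could have divided. Ncr1, which defines natural killer cells, had 1, 0 and 0 sham counts and 1, 6 and 0 BCP counts, and Klrb1 had none in any library. None of the 9 rows for B and plasma cells passed the filter, and the list summed to 36 counts in the sham group and 61 in the BCP group. Of the list of monocytes and neutrophils 5 genes were tested and 3 were called up, Csf3r (log2 fold change 1.66, SE 0.12), F10 (2.73, SE 0.24) and S100a8 (5.24, SE 0.83), of which S100a8 reached the filter in no sham library, with Ccr2 at 0 counts in each sham library and 1 in each BCP library.

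Genes of red cells and platelets were higher in the BCP libraries as well, with 5 of 6 tested genes called up, 0 down and a median log2 fold change of 1.40. Their summed FPKM went from 302 to 311 in the sham libraries to 525 to 825 in the BCP libraries. The called genes with the smallest p-values were the globin Hbb (log2 fold change 1.32, SE 0.09), Itga2b of platelets (3.35, SE 0.29), Hbb-b1 (1.10, SE 0.15) and Alas2, an enzyme of heme synthesis in erythroid cells (1.48, SE 0.25), and globin genes are near-copies of each other. By summed counts Hbb was 2.49 times as high (exact 95% counting interval 2.31 to 2.70), Slc4a1, an anion exchanger of red cells, 4.51 times (3.58 to 5.73) and Itga2b 10.4 times (6.87 to 16.4), beside ratios of 3.44 for Zap70 to 293 for Cd3e among the members. The part of blood content in the counts of the members was not tested. Genes of meninges and fibroblasts (7 tested, 2 with an unadjusted p under 0.05) and of epithelial tumour (5 tested, 1 with an unadjusted p under 0.05) gave 0 calls by edgeR and 0 by DESeq2, with medians of -0.07 and 0.08. The tumour marker Epcam had 8, 0 and 4 sham counts and 4, 4 and 5 BCP counts.

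**Figure D4:**
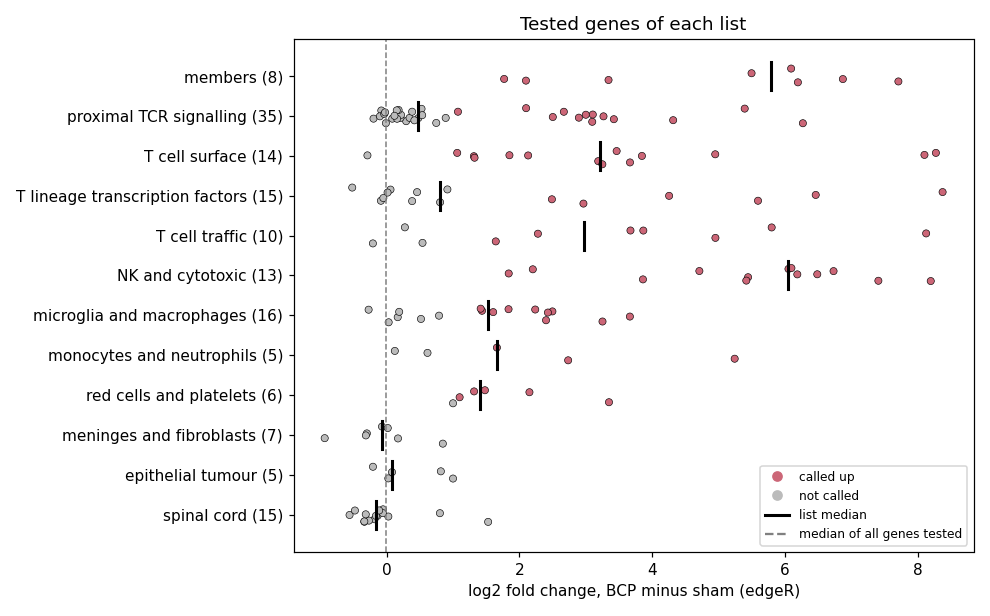
Log2 fold change (BCP minus sham, edgeR) of each tested gene in the lists, with genes called up in red, other genes in gray, the median of each list as a black line and that of all tested genes as a dashed line. The number of tested genes stands in brackets, and the members lie between 1.77 and 7.71, where the larger values belong to genes with almost no sham counts.

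The genes around the members showed whether the rise was shared with the neighbourhood. Coordinates are those of the files, on Rnor_6.0. Cd3g (chr8:49274960-49280901), Cd3d (chr8:49282460-49287110) and Cd3e (chr8:49297608-49308806) lie in a row on chromosome 8, with 1559 bases between Cd3g and Cd3d and 10498 bases between Cd3d and Cd3e. Beyond Cd3g lies Ube4a, a ubiquitin ligase, whose log2 fold change was -0.03 (SE 0.05, edgeR adjusted p = 0.641). On the other side, 33261 bases beyond Cd3e, Mpzl2 stood at -0.72 (SE 0.23, edgeR adjusted p = 0.0234), which is short of the fold threshold. Thus, among the named genes looked at, those that rose at this place were the CD3 genes, and neither flanking gene was called. Some rows, such as those with provisional or clone-based names, were left out of the search.

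On chromosome 4, Cd8b (chr4:99185885-99202023) and Cd8a (chr4:99239115-99243351) are neighbours, 37092 bases apart. They are flanked by Krcc1, with a log2 fold change of 0.63 (SE 0.10), and Rmnd5a, with -0.02 (SE 0.07). Further along, Cd4 (chr4:157383052-157408176) lies next to Gpr162 at -0.24 (SE 0.07) and Lag3. Lag3, a checkpoint receptor related to CD4 that also binds MHC class II, had 7, 10 and 7 sham counts and 80, 137 and 130 BCP counts, with a log2 fold change of 3.94 (SE 0.28, edgeR adjusted p = 1.41e-09). Among the flanking genes looked at, Lag3 was the only one outside the members to be called. Cd247 (chr13:83996080-84071400) lies between Creg1 at 0.86 (SE 0.12) and Pou2f1 at -0.07 (SE 0.12). Lck (chr5:147750973-147761983) lies between Hdac1l at 0.39 (SE 0.08) and Fam167b, which had no counts. Zap70 (chr9:43331155-43353113) lies between Actr1b at -0.20 (SE 0.04) and Tmem131 at 0.35 (SE 0.05). Krcc1, Creg1, Hdac1l and Tmem131 were higher at an edgeR adjusted p under 0.05, with changes short of the fold threshold. Gpr162 and Actr1b were lower in the same way.

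In the separate table of long noncoding RNAs, 15 transcripts lay within 10 kb of 7 of the members, and 6 of these overlapped a member. The overlapping transcripts had at most 20 counts in a library, none was tested, and the text of the study does not say whether the counting used strand, so their reads cannot be told apart from those of the gene. Of the 7 transcripts tested, 0 were called by edgeR or by DESeq2 and 1 had an unadjusted p under 0.05, against 1.14% of all tested transcripts called up and 0.074% down. That transcript, NONRATT029925.2, 5146 bases from Zap70, had 129 counts in each sham library and 136, 159 and 150 in the BCP libraries (log2 fold change 0.34, SE 0.12, edgeR adjusted p = 0.245). It overlaps the gene Tmem131, which stood at 0.35 (SE 0.05), and their reads cannot be told apart. The NONRATT028490.2 transcript beside Cd3g had 32, 21 and 21 counts against 12, 24 and 23. It lies within the coordinates of the gene Ube4a, so the same limit holds.

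The genes outside the members whose profile over the 6 libraries was most like that of the CD3 chains were sought among all tested genes. Likeness was the root mean square distance between centred log2 CPM profiles, with a prior count of 2 that compresses the lowest values. The 5 nearest were Lyz2 (distance 0.18), Cd27 (0.20), Ocstamp (0.20), Clec12a (0.20) and Cxcr6 (0.22), and Cd3g itself lay at 0.22 from the mean of the CD3 chains and Cd3e at 0.66. Cd27 and Cxcr6 are lymphocyte receptors, Lyz2 encodes a lysozyme of phagocytes, Ocstamp a membrane protein known from osteoclasts and Clec12a a lectin of myeloid cells. Lyz2 had 447 to 574 counts in sham cord against 4902, 7796 and 8248 in BCP libraries 1, 2 and 3, so BCP library 1 was lowest there too. Among the members, Cd4 at 1.04 and Zap70 at 1.22 lay farthest from the mean of the CD3 chains.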

How the data were processed

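RNA of the ipsilateral lumbar cord was sequenced in 6 strand-specific, rRNA-depleted libraries. Per the paper's methods and the submitters' notes, the authors filtered the raw reads, aligned the rest with HISAT2 2.0.4 (genome Rnor_6.0) and computed expression with StringTie 1.3.0. They deposited raw counts and FPKM values for each gene and lncRNA. The counter and its use of strand are not given in the sources used here.

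The test over all genes used the counts and edgeR 4.0.16 under R 4.3.3 (filter by expression with a minimum count of 10, here 0.737 CPM in at least 3 libraries, TMM, robust quasi-likelihood fit on the condition, Benjamini-Hochberg adjustment over all tested genes). A gene was called where its adjusted p was below 0.05 and its fold change above 2 either way. SE is the log2 fold change divided by the root of the test statistic. LncRNAs were fitted separately. Ratios of FPKM were compared with exact permutation tests in scipy 1.17.1. Counting intervals are exact at 95%, and floors are 3 counts over the group of 3 libraries. The intervals cover counting error only, and a fold against a floor takes the BCP count as exact and is not a lower bound. The depth was 11779485 counts or more per library. Alternatives were DESeq2 1.42.0, limma 3.58.1 (voom, and trend on log2(FPKM + 0.1)), the likelihood ratio test, other scalings, no filter, a test against a fold change of 2, a replicate block and each library left out. The code was tested on simulated data. Libraries of a group differed by more than counting noise (chi-square per degree of freedom 3.48 to 6.04).

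The members and lists were chosen with earlier results of these data known. The rule for naming took each member, the named gene on either side, the 5 nearest profiles, the variable segment rows, lncRNAs within 10 kb and, in each list, the 4 called genes with the smallest p-values, any called the opposite way and defining genes at 0 in all libraries. Some genes that this rule names are not reported here. Aqp4, Themis, Lat, Fyn, Plcg1, Thy1, Zbtb7b, Foxp3, Ccr7, Ncr1, Ccr2, Csf1r, Slc4a1 and Epcam were named after their values were seen.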

Additional observations from a re-analysis of the deposited data

How the results depend on the processing

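The number of members called up was 8 or 9 under each of the 15 alternatives, with 0 called down in any of them. The 9th is Cd8b, which was tested and called without a filter and without sham library 1, 2 or 3 or BCP library 1. Each of the 8 tested members kept its direction and its call in all 15, with the largest adjusted p, 0.0119 for Zap70, in the edgeR test against a fold change of 2. Fitted log2 fold changes ranged from 1.98 to 2.18 for Cd4, 3.08 to 3.77 for Lck and 1.57 to 1.92 for Zap70, but from 4.83 to 9.52 for Cd3e, 4.0 to 7.0 for Cd3d, 4.83 to 7.90 for Cd3g, 3.72 to 8.10 for Cd247 and 4.91 to 7.03 for Cd8a. The lowest values of Cd3e, Cd3d, Cd3g, Cd247 and Cd8a came from log2(FPKM + 0.1), where the added constant bounds the fold.

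Replicate numbers gave no sign of pairing, as deviations of same-numbered libraries correlated at -0.11, 0.04 and -0.04. The labels do not say whether samples were paired, and these values cannot settle it. With the replicate number as a block 8 members were called up, and 1 epithelial tumour gene was called in place of 0. The same list gave 0 to 1 calls when a library was left out, 1 of them without sham library 2 and 1 without BCP library 3. Red cell and platelet genes called up numbered 3 in the test against a fold change of 2 in place of 5, and 1 gene of B and plasma cells was called without a filter in place of 0. The causes were not tested. Near the members 0 lncRNAs were called under each of the 9 alternatives run on that table. Depth limits the CD3 genes, Cd247, Cd8a and Cd8b, whose sham levels rest on 0 to 3 counts in the group.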
